A study of Homo sapiens with 6 samples.

Results

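The 10 genes described here are NFE2L2, which encodes the transcription factor NRF2, KEAP1 and MAFG, which encode its repressor and a binding partner, and 7 core target genes: NQO1, TXN, TXNRD1, SRXN1, ME1, EPHX1 and OSGIN1. They were chosen by name, with earlier results of these data known. All 10 were found among the 35035 genes of the deposited table. Measurements came from RNA sequencing of HK-2, a cell line derived from proximal tubule epithelium of human kidney and immortalised. Of the 6 libraries, 3 came from cells given a plasmid that overexpresses the circular RNA circAASS, labelled as circAASS-overexpressed. The other 3 came from cells transfected with the empty vector, with a genotype label of WT. Cells of both groups were kept at 1% oxygen for 24 h and reoxygenated for 12 h, so that every value was measured after hypoxia and reoxygenation. Nothing in the labels says that the repeats were separate passages or days, and p-values therefore measure the spread between these libraries, which may be technical.

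NRF2 is a basic leucine zipper factor that, paired with a small MAF protein, binds antioxidant response elements in the control regions of detoxification and antioxidant genes. In unstressed cells KEAP1 holds NRF2 and presents it to a CUL3 ubiquitin ligase for degradation, and oxidants or electrophiles that modify KEAP1 cysteines let NRF2 accumulate. Much of this control acts on the protein, so mRNA levels of NFE2L2 and KEAP1 do not measure NRF2 activity. In the proximal tubule, reoxygenation after hypoxia is a known source of oxidants, and NRF2 targets are commonly followed there as a defence against injury.

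Values are RPKM, read counts divided by gene length and library size, as the authors deposited them. Library totals worked out from these values ran from 45148425 to 58179563 reads, with most small read numbers even. Markers of epithelial cells (KRT8, KRT18, KRT19, EPCAM and CDH1) added up to 321 to 360.1 RPKM in circAASS libraries and 289 to 303 RPKM in empty-vector libraries, but they did not move one way. KRT8 and KRT18 rose (log2 fold changes 0.30 and 0.50), EPCAM fell (-0.21, limma adjusted p = 0.0284, lost in 7 of 15 alternatives), KRT19 did not pass, and CDH1 did not pass and stayed at or under 0.0857 RPKM. Markers of the proximal tubule were largely absent. Of 10 such genes only GGT1 and SLC5A2 averaged at least 1 RPKM, the endocytic receptors LRP2 and CUBN never passed 0.0145 and 0.0237 RPKM, and the sum over the list was 8.95 to 9.47 RPKM in circAASS libraries and 12.4 to 14.2 RPKM in empty-vector libraries. The 10 genes taken as markers of other cells added up to 79.4 to 101 RPKM in circAASS libraries and 103 to 107 RPKM in empty-vector libraries, nearly all of it CD68, of which other genes cover 85.8% of the exon bases. The leukocyte marker PTPRC and the endothelial marker PECAM1 stayed at or under 0.0106 and 0.0266 RPKM. Of 5 RNAs that depend on how the poly(A) selection went or that stay in the nucleus, RN7SK, RN7SL1 and RN7SL2 were higher and NEAT1 and MALAT1 lower with the circAASS plasmid. RN7SK stood at 55.6, 135 and 190.3 RPKM in circAASS libraries 1, 2 and 3 and at 44.7, 34.1 and 37.0 RPKM in empty-vector libraries 1, 2 and 3. The RN7SK call was lost in 5 of 15 alternatives (limma adjusted p up to 0.11), and other annotated genes on the same strand cover 100% of the exon bases of RN7SK and RN7SL1. Some epithelial and tubule markers and all 5 of these RNAs were called between the groups. None of the markers of other cells was called, and the scaled CD68 values overlapped (limma adjusted p = 0.212). What part these lists had in the results below was not tested. In bulk RNA, fewer cells expressing a gene and less RNA per cell cannot be told apart.

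With the circAASS plasmid 7 of the 10 genes rose, 1 fell and 2 did not pass the test. The rises were NFE2L2, MAFG, NQO1, TXN, ME1, EPHX1 and OSGIN1, the fall was TXNRD1, and KEAP1 and SRXN1 did not pass (limma on log2(RPKM + 0.1), Benjamini-Hochberg adjusted p under 0.05 over 19350 genes). Of all tested genes 16.0% were called higher and 16.3% lower, together 32.3%. The median log2 fold change of the 10 genes was 0.27, and that of all tested genes was -0.01. After scaling, the groups stood apart without overlap in 9 of the 10 genes, against 47.9% of all tested genes. These shares give the background only, because the 10 genes were chosen with earlier results of these data known. All 10 genes passed the filter on low values. ME1, EPHX1 and OSGIN1 changed most, with log2 fold changes of 0.88, 0.79 and 0.68. Each was larger in size than the changes of at least 89.8% of the tested genes. The other 5 called genes had log2 fold changes between 0.25 and 0.34 in size, close to the middle of the distribution over all tested genes. Scaling mattered to the direction of calls over the whole table: 3091 genes were called higher and 3152 lower, against 2159 higher and 4023 lower when RPKM were used as deposited, where the median log2 fold change of all genes was -0.08.

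**Figure D1:**
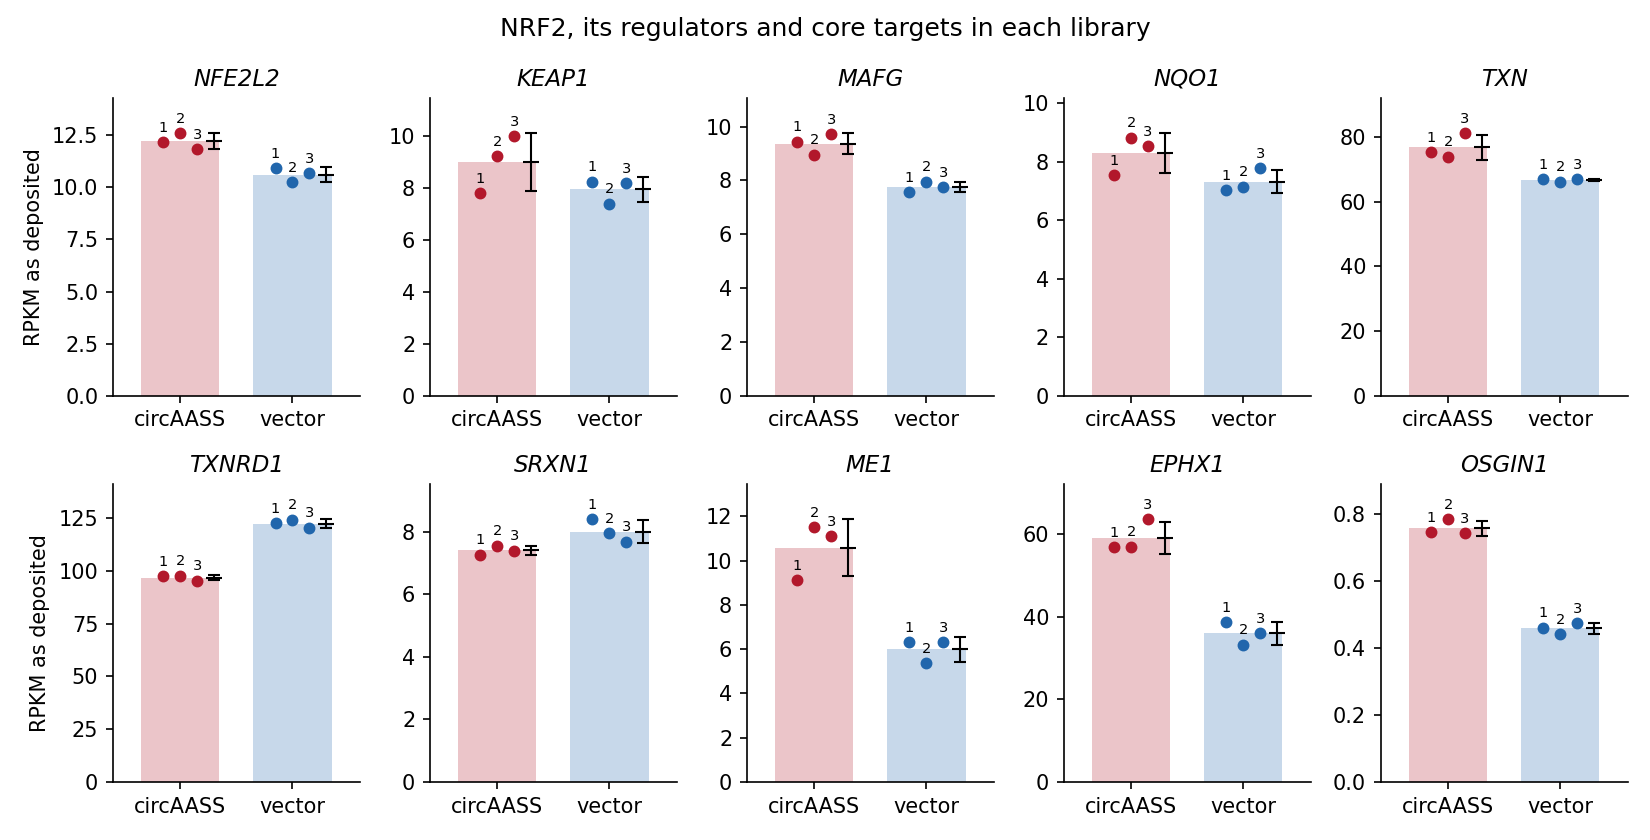
Deposited RPKM of the 10 genes in each circAASS library (red, left) and each empty-vector library (blue, right), with the library number above each point. Bars are means and black lines span 1 SD (n = 3 libraries each). ME1, EPHX1 and OSGIN1 differ most as fold changes, TXNRD1 is lower in every circAASS library, and KEAP1 and NQO1 overlap on this unscaled axis.

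NFE2L2 and MAFG rose modestly and KEAP1 did not pass. NFE2L2 (ENSG00000116044, chromosome 2, 177227595 to 177392697, minus strand, GRCh38) stood at 12.2, 12.6 and 11.8 RPKM in circAASS libraries 1, 2 and 3 and at 10.9, 10.2 and 10.7 RPKM in empty-vector libraries 1, 2 and 3. All circAASS libraries lay above all empty-vector libraries, with means of 12.2 ± 0.385 RPKM in circAASS libraries and 10.6 ± 0.351 RPKM in empty-vector libraries (SD, n = 3 each). The rise was small, 1.21-fold with a 95% confidence interval of 1.10 to 1.32 (log2 fold change 0.27, SE 0.06, limma adjusted p = 0.0102). Fold changes here and below are of scaled values unless said otherwise, while RPKM and their means are as deposited. Without scaling the NFE2L2 log2 fold change was 0.20. The rise passed in all 15 alternative settings, with adjusted p from 0.00061 to 0.0448. Other genes cover 20.9% of the NFE2L2 exon bases, 17.6% on the same strand, so its reads are uncertain to that extent.

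KEAP1, the adaptor that delivers NRF2 to the ubiquitin ligase (chromosome 19, 10486120 to 10503741, minus strand), was more variable. It stood at 7.81, 9.23 and 9.99 RPKM in circAASS libraries and at 8.25, 7.41 and 8.20 RPKM in empty-vector libraries. The deposited values overlapped, because circAASS library 1 lay below 2 of the empty-vector libraries. The log2 fold change of 0.24 (SE 0.09, 95% confidence interval 0.04 to 0.45) did not pass over all genes (limma adjusted p = 0.0686). Without circAASS library 1 it was 0.33 and passed (adjusted p = 0.0166), and it also passed with voom weights on the recovered reads (adjusted p = 0.0112). Over all alternatives the adjusted p ran from 0.0112 to 0.213. The library with the lowest KEAP1 of the circAASS group also had the lowest RN7SK of that group, and the part of this in the KEAP1 values was not tested. KEAP1 was not alone: circAASS library 1 had the lowest deposited RPKM of its group for 5 of the 10 genes, ME1 and EPHX1 among them.

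MAFG, a small MAF protein with which NRF2 binds DNA (chromosome 17, 81918270 to 81927714, minus strand), stood at 9.44, 8.96 and 9.72 RPKM in circAASS libraries and at 7.57, 7.96 and 7.76 RPKM in empty-vector libraries. The groups did not overlap. MAFG rose 1.27-fold (95% confidence interval 1.16 to 1.38, log2 fold change 0.34, SE 0.05, limma adjusted p = 0.00351) and passed in every alternative run. Besides being a partner, MAFG is itself known as an NRF2 target.

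Ratios within a library do not depend on library scaling. KEAP1 stood at 0.641, 0.732 and 0.844 of the NFE2L2 level per length in circAASS libraries 1, 2 and 3 and at 0.755, 0.724 and 0.767 in empty-vector libraries 1, 2 and 3. The means of 0.739 ± 0.102 in circAASS libraries and 0.749 ± 0.0223 in empty-vector libraries (SD, n = 3 each) differed by less than the spread, by -0.027 on the log2 scale (two-sided exact permutation test p = 0.8). BACH1, a repressor that competes with NRF2 for the same elements, showed as little difference. Its ratio to NFE2L2 was 0.254, 0.286 and 0.298 in circAASS libraries and 0.252, 0.275 and 0.319 in empty-vector libraries, a difference of -0.010 on the log2 scale (exact permutation p = 1). With 3 libraries a group, 0.1 is the smallest p this test can give. The signs of both differences turned when 1 library was left out: that of KEAP1 became 0.071 without circAASS library 1, and that of BACH1 became 0.057 without circAASS library 1 and 0.082 without empty-vector library 3.

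Of the targets, the cytosolic malic enzyme ME1, which makes NADPH from malate, had the largest change (chromosome 6, 83210389 to 83431071, minus strand). It stood at 9.13, 11.5 and 11.1 RPKM in circAASS libraries and at 6.32, 5.36 and 6.32 RPKM in empty-vector libraries, from 1476, 2260 and 1774 reads in circAASS libraries and 962, 921 and 1118 reads in empty-vector libraries. The lowest circAASS library, library 1, was still well above the highest empty-vector library. ME1 rose 1.84-fold (95% confidence interval 1.56 to 2.16, log2 fold change 0.88, SE 0.10, limma adjusted p = 0.0011). With any 1 library left out the log2 fold change lay between 0.80 and 0.97.

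EPHX1, the microsomal epoxide hydrolase that opens reactive epoxides to diols (chromosome 1, 225810092 to 225845563, plus strand), was among the more abundant of the genes. Its RPKM were 56.9, 57.0 and 63.6 in circAASS libraries and 38.7, 33.2 and 36.1 in empty-vector libraries. The groups lay far apart relative to their spread, with means of 59.2 ± 3.85 RPKM in circAASS libraries and 36.0 ± 2.72 RPKM in empty-vector libraries (SD, n = 3 each). EPHX1 rose 1.73-fold (95% confidence interval 1.55 to 1.93, log2 fold change 0.79, SE 0.07, limma adjusted p = 0.000421), the smallest adjusted p of the 10 genes.

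OSGIN1, an oxidative-stress-induced growth inhibitor (chromosome 16, 83948282 to 83966332, plus strand), was the least abundant of the genes. It stood at 0.747, 0.785 and 0.744 RPKM in circAASS libraries and at 0.461, 0.442 and 0.474 RPKM in empty-vector libraries. These values rest on 124, 158 and 122 reads in circAASS libraries and on 72, 78 and 86 reads in empty-vector libraries. The groups were each tight and did not overlap, and OSGIN1 rose with a log2 fold change of 0.68 (SE 0.13, limma adjusted p = 0.00657). At this level the fold change depends on the pseudocount: with 1 RPKM in place of 0.1 it was 0.30, and with 0.01 it was 0.79. OSGIN1 shares 13.9% of its exon bases with a gene on the same strand.

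NQO1, a quinone reductase and a widely used readout of NRF2 activity (chromosome 16, 69706996 to 69726951, minus strand), changed little. It stood at 7.53, 8.82 and 8.53 RPKM in circAASS libraries and at 7.03, 7.14 and 7.77 RPKM in empty-vector libraries. The deposited values overlapped and the scaled values did not. NQO1 rose 1.19-fold (95% confidence interval 1.06 to 1.33, log2 fold change 0.25, SE 0.07, limma adjusted p = 0.031). This call was lost with RPKM as deposited (adjusted p = 0.121), without circAASS library 2 or 3 (0.0782 and 0.0838), without empty-vector library 1 or 2 (0.0899 and 0.0968), without a filter on low values (0.0698) and without trend and robust estimation (0.0618). Another gene lies antisense to 17.7% of its exon bases.

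The thioredoxin genes moved in opposite directions. Thioredoxin, encoded by TXN, reduces disulfides in peroxiredoxins and other proteins and is itself recharged from NADPH by thioredoxin reductase, encoded by TXNRD1 for the cytosol. TXN (chromosome 9, 110243811 to 110256640, minus strand) stood at 75.4, 73.9 and 81.3 RPKM in circAASS libraries and at 67.0, 66.3 and 67.0 RPKM in empty-vector libraries. It was higher in every circAASS library and rose 1.21-fold (95% confidence interval 1.12 to 1.30, log2 fold change 0.27, SE 0.05, limma adjusted p = 0.00412).

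TXNRD1 (chromosome 12, 104215779 to 104350305, plus strand) had the highest level per length of the 10 genes and was the one that fell. Its RPKM were 97.6, 97.6 and 95.3 in circAASS libraries and 122.5, 124.3 and 120.4 in empty-vector libraries, from 30296 to 38099 reads in circAASS libraries and 37102 to 42544 reads in empty-vector libraries. No circAASS library came near the lowest empty-vector library. The log2 fold change was -0.26 (SE 0.05, 95% confidence interval -0.37 to -0.16, limma adjusted p = 0.0053), and TXNRD1 was called lower in all 15 alternatives. Neither TXN nor TXNRD1 shares exon bases with another annotated gene, but TXN has pseudogenes, of which TXNP6 held 0 to 7 reads a library, and reads shared with such copies are uncertain. The TXN level was 0.772, 0.757 and 0.853 of the TXNRD1 level in circAASS libraries and 0.547, 0.533 and 0.556 in empty-vector libraries, a ratio 45.4% higher with the circAASS plasmid. The exact permutation p was 0.1, the smallest this design can give, and leaving out any 1 library kept the log2 difference between 0.49 and 0.57.

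**Figure D2:**
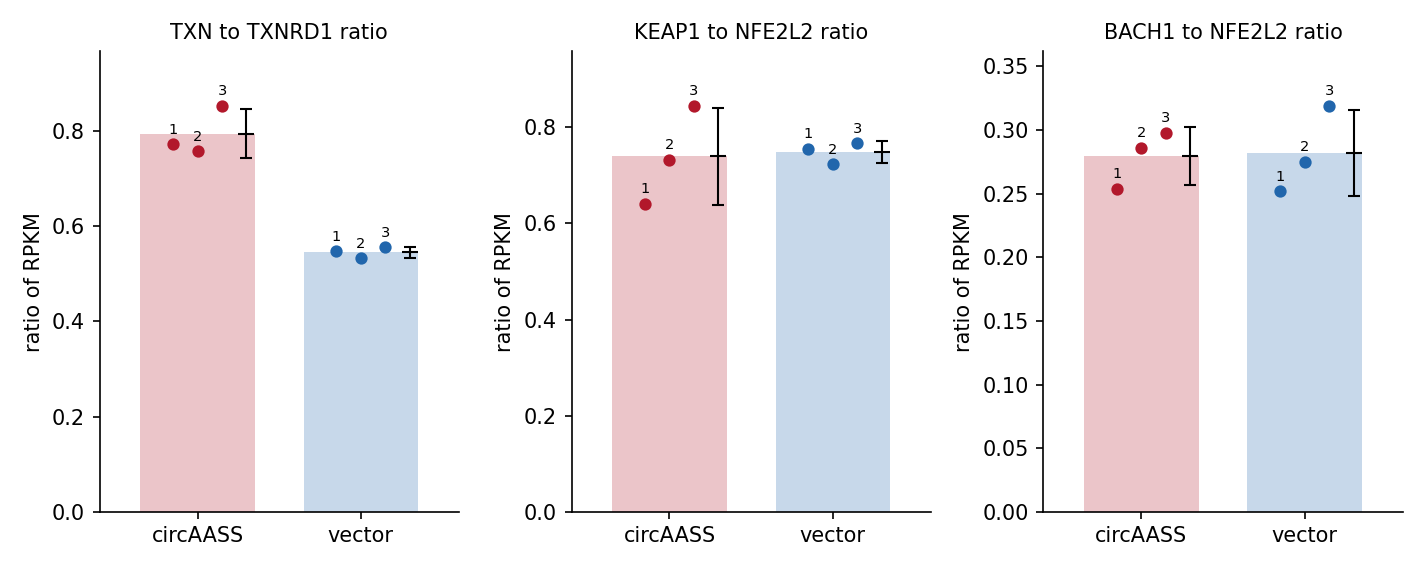
Ratios of RPKM within each circAASS library (red, left) and each empty-vector library (blue, right), with means as bars and 1 SD as black lines (n = 3 libraries each). The TXN to TXNRD1 ratio is 0.757 to 0.853 with the circAASS plasmid and 0.533 to 0.556 with empty vector, and the ratios of KEAP1 and BACH1 to NFE2L2 overlap.

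SRXN1, sulfiredoxin, restores overoxidised peroxiredoxins (chromosome 20, 646615 to 653370, minus strand). It stood at 7.26, 7.56 and 7.40 RPKM in circAASS libraries and at 8.40, 7.95 and 7.69 RPKM in empty-vector libraries. Every deposited circAASS value lay just below the empty-vector values, and after scaling the groups overlapped. SRXN1 had a log2 fold change of -0.039 (SE 0.06, 95% confidence interval -0.18 to 0.10, limma adjusted p = 0.652), and without empty-vector library 1 its sign turned (0.00097). A gene on the same strand covers 85.0% of its exon bases, so that its reads are uncertain.

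**Figure D3:**
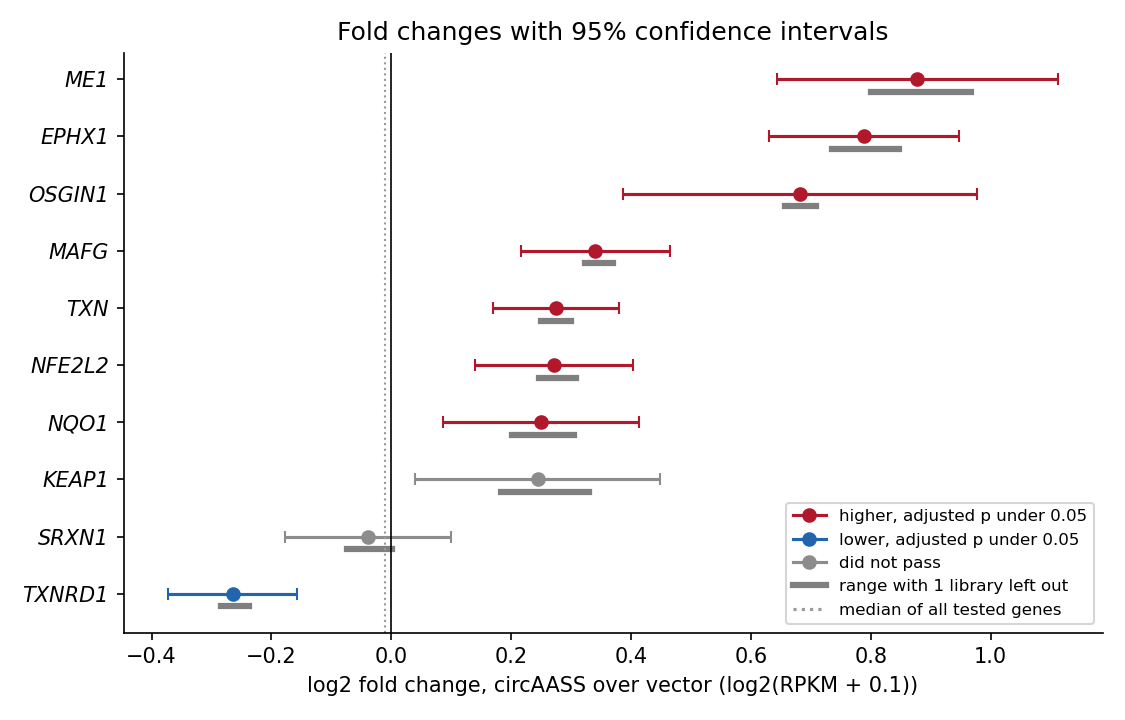
Log2 fold changes of the 10 genes, circAASS over empty vector on the log2(RPKM + 0.1) scale, with 95% confidence intervals (red, higher; blue, lower; grey, did not pass). Thick grey lines span the estimates with any 1 library left out, and the dotted line is the median of all tested genes at -0.01. ME1, EPHX1 and OSGIN1 stand apart from the other rises, which cluster between 0.25 and 0.34.

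Promoters of the 3 genes that rose most and of the one that fell are shown with the antioxidant response element in capitals, to set the binding motif of NRF2 beside rises and a fall. The motif was searched as TGACNNNGC or TGAGNNNGC on both strands of RefSeq promoter windows (GRCh38.p14) of 300 bases, and a match on the other strand reads as its reverse complement. Each line runs from 250 bases before the transcript start to 20 after it, 5′ to 3′ on the strand of the gene.
ME1: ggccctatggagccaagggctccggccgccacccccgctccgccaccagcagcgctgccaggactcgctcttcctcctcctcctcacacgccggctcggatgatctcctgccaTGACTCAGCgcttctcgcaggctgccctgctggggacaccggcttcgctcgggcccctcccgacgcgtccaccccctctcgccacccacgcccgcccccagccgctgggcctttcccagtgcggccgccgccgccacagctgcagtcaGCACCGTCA
EPHX1: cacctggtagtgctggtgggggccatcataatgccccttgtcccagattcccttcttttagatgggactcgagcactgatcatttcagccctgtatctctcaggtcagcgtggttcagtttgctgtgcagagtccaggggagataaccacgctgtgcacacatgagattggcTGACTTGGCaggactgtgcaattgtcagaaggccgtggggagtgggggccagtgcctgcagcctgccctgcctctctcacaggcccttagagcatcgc
OSGIN1: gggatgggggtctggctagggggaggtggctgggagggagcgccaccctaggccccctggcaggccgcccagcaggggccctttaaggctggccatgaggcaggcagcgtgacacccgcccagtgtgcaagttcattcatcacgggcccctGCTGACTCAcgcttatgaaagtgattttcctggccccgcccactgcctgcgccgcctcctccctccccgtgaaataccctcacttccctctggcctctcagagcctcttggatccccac
TXNRD1: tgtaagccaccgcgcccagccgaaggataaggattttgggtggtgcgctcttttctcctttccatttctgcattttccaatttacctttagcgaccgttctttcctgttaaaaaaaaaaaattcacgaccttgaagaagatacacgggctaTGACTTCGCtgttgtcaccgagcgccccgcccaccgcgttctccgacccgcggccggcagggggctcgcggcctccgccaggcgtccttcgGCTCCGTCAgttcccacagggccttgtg
The ME1 window (chr6:83431032-83431301, minus strand) holds TGACTCAGC from 137 to 129 bases before the start and a second match on the other strand from 12 to 20 bases after it. The EPHX1 line (chr1:225825104-225825373, plus strand) is that of an inner start of the gene and holds TGACTTGGC from 78 to 70 bases before it. It is the only one of the 3 EPHX1 windows with a match, and the window at the outermost start has none. In OSGIN1 (chr16:83952990-83953259, plus strand) the other strand reads TGAGTCAGC from 99 to 91 bases before the start. The TXNRD1 window at the outermost start (chr12:104215529-104215798, plus strand) holds TGACTTCGC from 99 to 91 bases before the start and a match on the other strand that spans it. A window at an inner start of TXNRD1 (chr12:104286782-104287051), not printed, holds 2 matches as well. All 10 genes had a promoter window, 15 windows in all since some genes have several starts. A match was present in at least 1 window of 7 genes (EPHX1, KEAP1, ME1, NFE2L2, NQO1, OSGIN1 and TXNRD1), or in 8 of the 15 windows. Over all 35116 windows 29.1% hold a match, and 33.7% of the 27305 gene symbols given to these windows have one in at least 1 window. The motif was present in a window of the gene that fell as well as of the 3 that rose most. A match describes the letters and is not a site, and elements farther from the start lie outside these windows.

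Other genes of the pathway were taken from lists of known regulators, targets and thioredoxin-system genes. Of 42 other NRF2 targets 37 could be tested, and 13 of these rose, 4 fell and 20 did not pass. That compares with 16.0% higher and 16.3% lower of all tested genes. The median log2 fold change of the 37 was 0.17, and that of all tested genes was -0.01. The rises with the smallest p were SQSTM1, SLC3A2, SLC7A11 and ABHD4. SQSTM1, an autophagy receptor that binds KEAP1, averaged 34.5 ± 2.03 RPKM in circAASS libraries and 26.2 ± 0.377 RPKM in empty-vector libraries (SD, n = 3 each). Genes on the opposite strand overlie 22.04% of its exon bases, and it is also counted among the regulators. SLC7A11 and SLC3A2, the light and heavy chains of the cystine importer, rose together. SLC7A11 averaged 1.86 ± 0.172 RPKM in circAASS libraries and 0.888 ± 0.151 RPKM in empty-vector libraries (log2 fold change 1.06, limma adjusted p = 0.00193). SLC3A2 averaged 14.4 ± 1.10 RPKM in circAASS libraries and 10.6 ± 0.226 RPKM in empty-vector libraries (log2 fold change 0.51). ABHD4, a lipid hydrolase, rose with a log2 fold change of 0.40.

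The 4 other targets that fell were ABCC3, FECH, FTH1 and GSTP1. The export pump ABCC3 averaged 2.09 ± 0.154 RPKM in circAASS libraries and 6.17 ± 0.258 RPKM in empty-vector libraries (log2 fold change -1.45, limma adjusted p = 0.000124). FECH, the ferrochelatase that completes haem synthesis, stood at 3.25, 3.00 and 3.38 RPKM in circAASS libraries and at 4.70, 4.26 and 4.84 RPKM in empty-vector libraries (log2 fold change -0.43). Log2 fold changes were -0.17 for the ferritin chain FTH1 and -0.19 for the glutathione transferase GSTP1. Dropping 1 library at a time removed the FTH1 call in 5 of 6 refits (highest adjusted p = 0.118) and the GSTP1 call in 4 of 6 (0.128). For FTH1, genes of the opposite strand overlie 62.4% of exon bases. HMOX1, haem oxygenase, is a classical NRF2 target and was chosen here after its values were seen. It stood at 0.971, 0.758 and 0.983 RPKM in circAASS libraries and at 1.05, 0.978 and 0.951 RPKM in empty-vector libraries (limma adjusted p = 0.744). GCLM of the same list, also chosen after its values were seen, rose (log2 fold change 0.57, limma adjusted p = 0.0075). Over that list 13 genes rose, 4 fell and 20 did not pass, so neither gene stands for the whole.

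Of 24 other regulators, all tested, 8 rose, 1 fell and 15 did not pass (median 0.20). Shares over all tested genes were 16.0% higher and 16.3% lower. CUL3, the scaffold of the KEAP1 ubiquitin ligase, averaged 10.6 ± 0.444 RPKM in circAASS libraries and 8.84 ± 0.404 RPKM in empty-vector libraries (log2 fold change 0.34). FBXW11, an F-box protein that targets NRF2 independently of KEAP1, averaged 4.50 ± 0.290 RPKM in circAASS libraries and 3.61 ± 0.0377 RPKM in empty-vector libraries (log2 fold change 0.38). MAFK, another small MAF protein, averaged 8.94 ± 0.427 RPKM in circAASS libraries and 6.34 ± 0.614 RPKM in empty-vector libraries (log2 fold change 0.56, SE 0.08). PALB2, a DNA repair protein that can bind KEAP1, was the regulator that fell (log2 fold change -0.28). Its call was lost without circAASS library 3 and without empty-vector library 2 or 3, with adjusted p up to 0.0708. BACH1 itself did not pass (adjusted p = 0.0862).

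In the thioredoxin system beside TXN and TXNRD1, 5 of 17 genes rose, 4 fell and 8 did not pass (median 0.15). Shares over all tested genes were 16.0% higher and 16.3% lower. PRDX1, a peroxiredoxin reduced by thioredoxin and by sulfiredoxin, stood at 258, 349 and 310.3 RPKM in circAASS libraries and at 210.2, 197 and 202 RPKM in empty-vector libraries (log2 fold change 0.65, limma adjusted p = 0.00319). It counts among the other targets too, and 24.9% of its exon bases lie under opposite-strand genes. The glutaredoxins GLRX3 and GLRX2, the peroxiredoxin PRDX4 of the secretory pathway and the thioredoxin-like TXNL1 also rose, with log2 fold changes of 0.53, 0.43, 0.37 and 0.25. Dropping 1 library removed the TXNL1 call in 5 of 6 refits (highest adjusted p = 0.0823) and the GLRX2 call without empty-vector library 2 (0.0503). TXNIP, the protein that binds and inhibits thioredoxin, had the largest fall of the list. It stood at 3.90, 3.77 and 4.19 RPKM in circAASS libraries and at 8.85, 10.6 and 10.5 RPKM in empty-vector libraries (log2 fold change -1.24, SE 0.08, limma adjusted p = 0.000168). TXNRD3, TXN2 and PRDX2 fell too, and the peroxiredoxin PRDX2 averaged 5.73 ± 0.0792 RPKM in circAASS libraries and 7.20 ± 0.221 RPKM in empty-vector libraries (log2 fold change -0.25).

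**Figure D4:**
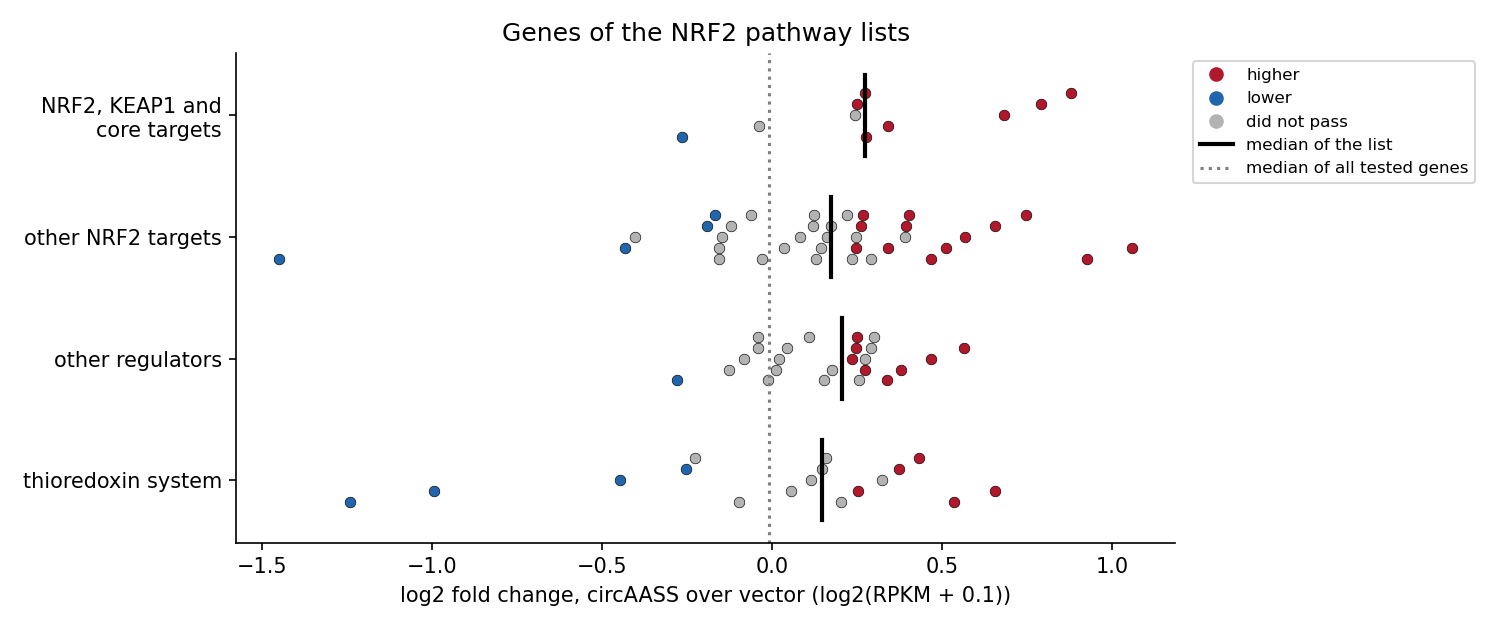
Log2 fold changes, circAASS over empty vector, of every tested gene in the 4 groups of genes (red, higher; blue, lower; grey, did not pass). Black bars mark the median of each group, 0.27, 0.17, 0.20 and 0.15 down the page, and the dotted line the median of all tested genes. Genes of each group lie on both sides of 0.

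Paralogues show whether a change was shared by the close relatives of a gene. Of 12 paralogues 1 rose, 4 fell and 7 did not pass (median -0.10), against 16.0% higher and 16.3% lower of all tested genes. Some of the 12 were already counted above: NFE2L1, NFE2L3, MAFF and MAFK among the regulators, and TXN2, TXNRD2 and TXNRD3 in the thioredoxin system. The difference of the paralogues from the 10 genes was not tested. The one that rose was MAFK, the partner-type relative of MAFG, while MAFF had a log2 fold change of 0.17 (adjusted p = 0.0733). NFE2L1, which was more abundant than NFE2L2, stood at 92.1, 72.3 and 81.1 RPKM in circAASS libraries and at 88.5, 90.4 and 85.5 RPKM in empty-vector libraries (adjusted p = 0.760). NFE2L3 did not pass either (adjusted p = 0.622). The mitochondrial thioredoxin TXN2 averaged 2.70 ± 0.395 RPKM in circAASS libraries and 3.90 ± 0.115 RPKM in empty-vector libraries (log2 fold change -0.45, limma adjusted p = 0.015), opposite in direction to TXN. TXNRD3 averaged 0.808 ± 0.106 RPKM with the circAASS plasmid and 1.80 ± 0.184 RPKM with empty vector (limma adjusted p = 0.00179). It fell, as TXNRD1 did, while mitochondrial TXNRD2 had a log2 fold change of 0.15 (adjusted p = 0.357).

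Among the enzymes, NQO2 averaged 0.703 ± 0.0546 RPKM in circAASS libraries and 1.05 ± 0.0454 RPKM in empty-vector libraries (log2 fold change -0.46). Its call went in 5 of 6 refits with 1 library dropped (highest adjusted p = 0.0729). EPHX2, the soluble epoxide hydrolase, stood at 0.163, 0.0807 and 0.132 RPKM in circAASS libraries and at 0.262, 0.429 and 0.388 RPKM in empty-vector libraries. It fell (log2 fold change -0.98, limma adjusted p = 0.0133), opposite in direction to EPHX1, from at most 98 reads a library, and its call was lost in 1 of 14 alternatives (adjusted p = 0.0589). The mitochondrial malic enzymes ME2 and ME3 had log2 fold changes of -0.24 and 0.13 and OSGIN2 one of -0.16, none of which passed (adjusted p = 0.13, 0.392 and 0.144).

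**Figure D5:**
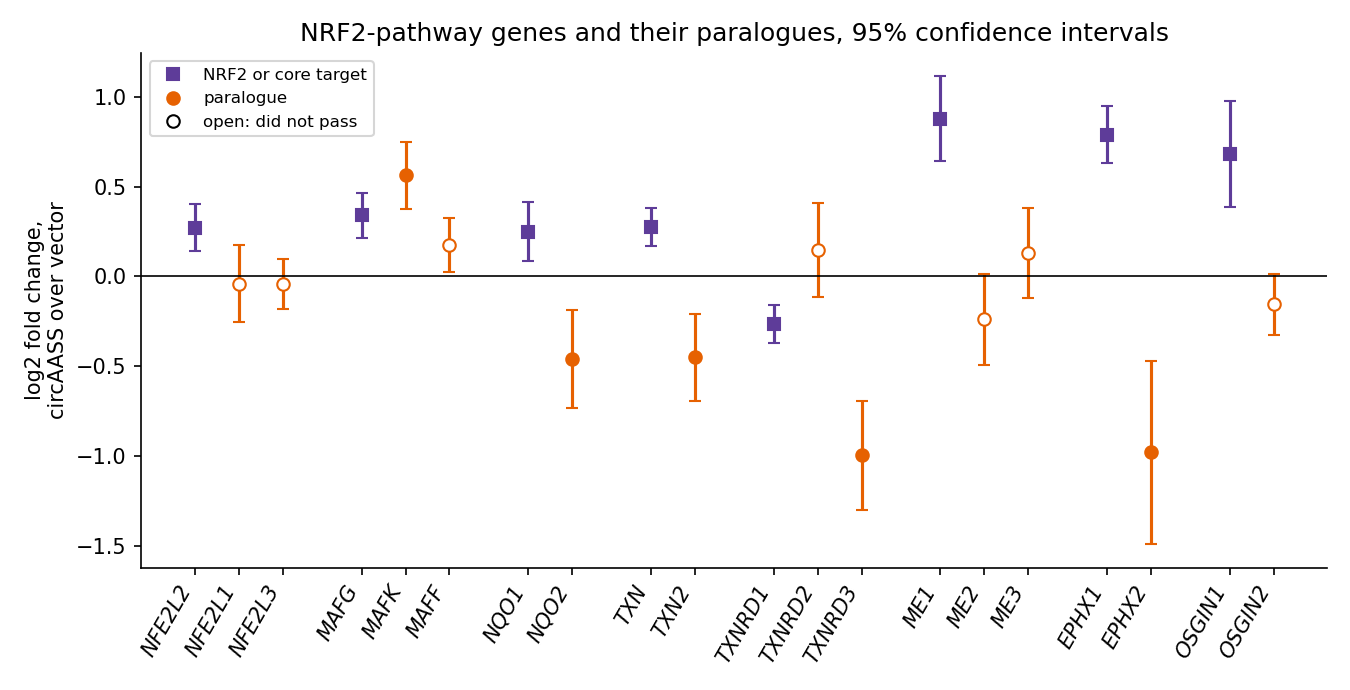
Log2 fold changes with 95% confidence intervals, circAASS over empty vector, of 8 of the genes (purple squares) and their paralogues (orange circles); open symbols did not pass. NQO1, TXN and EPHX1 lie above 0 while NQO2, TXN2 and EPHX2 lie below it. Other relatives share a side: MAFG and MAFK both lie above 0, and TXNRD1 and TXNRD3 both lie below it.

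Levels per length put the genes in an order. By their mean RPKM in both groups TXNRD1, TXN and EPHX1 came first, with TXNRD1 above TXN in each of the 6 libraries and TXN above EPHX1 in each. NFE2L2 followed at 10.2 to 12.6 RPKM. MAFG, KEAP1, NQO1, SRXN1 and ME1 lay between 5.36 and 11.5 RPKM in all libraries and their ranges overlapped, while OSGIN1 stayed under 1 RPKM. Among 6518 other genes averaging 5 RPKM or more, those whose log2 values followed NFE2L2 most closely over the 6 libraries were EIF1AX, the pseudogene NPM1P27 and PHF5A, with Pearson correlations of 0.998, 0.998 and 0.997. These 6 points share the difference between the groups and the library scaling, and near-identical copies make the reads of NPM1P27 uncertain.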

How the data were processed

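RNA of 6 libraries (3 with the circAASS plasmid, 3 with empty vector) was measured with a stranded mRNA kit and read pairs, per the labels' protocols. The deposited values were RPKM per gene. The submitters' processing notes name Trimmomatic 0.36, featureCounts of Subread 1.5.1, edgeR 3.12.1 and GRCh38, with aligner, annotation release and strand setting not given in the sources used here. The series' design text has 24 h where the sample labels have 12 h of reoxygenation, and times here follow the sample labels.

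Whole reads were worked out with GENCODE 29 exon-union lengths, which made values whole within 0.02 reads for 22385 of 24697 genes (90.6%) and for all 10 genes; the other lengths were found by search. Library totals were 45148425 to 58179563 reads. RPKM were scaled by trimmed-mean factors of these reads (0.958 to 1.036). Genes reaching 10 reads, scaled to the median library, in 3 libraries and 15 in all were tested with limma 3.58.1 (R 4.3.3) on log2(RPKM + 0.1), with trend and robust estimation and Benjamini-Hochberg adjustment over 19350 genes (threshold 0.05). The test was checked on simulated data. Names of 28 genes had become dates and were left out. Ratios were tested by exact permutation. Alternatives covered scaling, pseudocount, filter, variance prior, voom, a replicate block and leaving out each library.

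Genes named were the 10, all paralogues, the 4 smallest p of each list in each direction, all calls of 5 or fewer, and the 3 closest to NFE2L2. HMOX1 and GCLM were added after their values were seen. The genes and lists were chosen with earlier results of these data known. Exon overlaps use GENCODE 29. Figures were drawn with matplotlib 3.10.9.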

Additional observations from a re-analysis of the deposited data

How the results depend on the processing

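Over the 10 genes and their alternatives, 139 of 149 refits kept the direction and the side of the threshold; 7 lost a call (all NQO1), 2 gained one (both KEAP1) and 1 turned the sign of SRXN1 (range with 1 library left out -0.075 to 0.00097, the upper value without empty-vector library 1). Counts of the 10 called higher were 6 to 8 and lower 1 throughout. Over all genes tested in each setting the counts ran from 2094 to 3707 higher and from 2039 to 4023 lower. With voom weights 13 other regulators and 2 paralogues were called higher. Calls rose over the whole table too, to 3707 higher and 3840 lower, against 3091 and 3152 in the main test. Of other targets 2 were called lower without a filter on low values and without trend and robust estimation, and with a mean of at least 1 RPKM required 2 paralogues were lower. Leaving out each library gave 0 to 1 regulators lower, 2 to 5 other targets lower, 3 to 6 thioredoxin-system genes higher, 1 to 2 paralogues higher and 2039 to 2883 of all genes lower. The log2 differences of the ratios ran from -0.13 to 0.071 for KEAP1 to NFE2L2 and from -0.088 to 0.082 for BACH1 to NFE2L2, with 0.057 for the second without circAASS library 1. The causes were not tested.

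Same-numbered libraries did not deviate together (correlations of -0.01, -0.02 and 0.02). Such correlations cannot show whether same-numbered repeats were handled together, which the labels do not say. With the number as a replicate block 7 of the 10 genes were higher and 1 lower, and 0 regulators were lower by limma (PALB2 adjusted p = 0.0536), with 1 regulator lower at an unadjusted p under 0.05. Without the block, voom weights called 1 regulator lower. Depth limits OSGIN1 most, with 72 to 158 reads.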
